A study of Mus musculus with 36 samples.

Results

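Matrix metalloproteinases and their inhibitors were described across 6 groups of proliferating C2C12 myoblasts, an established clonal mouse line of muscle precursors. The 10 genes are a list of names drawn up with earlier results of these data known, although no measured value enters the rule: the proteases Mmp2, Mmp3, Mmp9, Mmp10, Mmp13, Mmp14 and Adamts1 and the inhibitors Timp1, Timp2 and Timp3. All 10 were among the 49315 genes of the files. Polyadenylated RNA was sequenced from 18 libraries, 3 for each combination of 3 regimes (in space without gravity, in space with gravity, on land) with or without nanoceria, which are cerium oxide nanoparticles given at 100 µg/ml with a serum coating in the medium reservoir of sealed culture units. Untreated units held no nanoparticles. All groups shared the cell line, the seeding on coverslips, the flight hardware and fixation with RNAlater on day 9. The land run came later, with its own cultures. Regime and run therefore cannot be told apart wherever a space group is set against land.

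The matrix metalloproteinases are zinc endopeptidases that cut proteins of the extracellular matrix, and most are made as inactive proenzymes. The tissue inhibitors of metalloproteinases (TIMPs) bind the active site and block it, while Mmp14 on the cell surface uses Timp2 as a bridge to activate proMmp2. In skeletal muscle these enzymes are known for remodelling the matrix around migrating and fusing myoblasts.

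Depth was far lower in 1 library: replicate 3 of the nanoceria group in space with gravity had a total of 23858 counts, against 2986628 to 11378178 in the other 17. In it 3 counts equal 35.7 CPM (counts divided by library size and scaled with edgeR's TMM factors), against 0.193 to 1.11 CPM in the others, so levels below are over 17 libraries while the tests include all 18. Lars2 and Gm23935 took 29.4% and 16.9% of the counts of these 17 libraries. With Gm15564, Gm24270, Gm24187 and Gm25911 they form a set of 6 genes taken from an earlier analysis, called the dominant genes below although only 3 of the 6 rank among the 6 highest summed counts (Canx, Malat1 and Actb hold the other ranks, and Gm25911 ranks 77). The 6 took 49.6% to 76.3% of counts on land, 24.5% to 54.4% in space with gravity and 40.7% to 70.3% in space without gravity (17 libraries). Of 6 myoblast markers, all had counts in each regime, with a summed level of 144 to 561 CPM on land, 134 to 251 CPM in space with gravity and 91.3 to 229 CPM in space without gravity; Myod1 had counts in 9 of the 17 libraries. Among markers of other cells, Adgre1 of macrophages, Lum of fibroblasts, Adipoq of adipocytes and Krt8 of epithelium were at 0 in these 17, but other markers of the same lists had counts, led by Ly6a (mean 69.7 CPM), Cd68 (16.7 CPM), Dcn (2.67 CPM) and Pdgfra (1.96 CPM). The labels call the libraries separate experiment units and do not say more, so the p-values measure the spread between these units. In such bulk samples, fewer cells of a type and less RNA per cell cannot be told apart.

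Inhibitor RNA was the most abundant when levels were divided by gene length. Mean CPM per kilobase over 17 libraries was 75.2 ± 33.7 (SD) for Timp2 and 55.8 ± 42.4 for Timp1, and these neighbours in the order did not differ beyond their spread. Next came Mmp14 at 6.82 ± 8.79 and Mmp2 at 6.81 ± 7.57 CPM per kilobase, the membrane-bound activator and the gelatinase it activates. Timp3, an inhibitor that stays bound to the matrix, followed at 3.83 ± 2.97 CPM per kilobase. Adamts1, a secreted protease that cleaves the proteoglycans aggrecan and versican, had 2.61 ± 1.79 CPM per kilobase. Timp1 had a higher mean than Timp2 on land, at 89.0 against 66.3 CPM per kilobase. It had the lower mean in space with gravity (28.1 against 69.9) and without gravity (45.7 against 88.6). The order below Timp2 and Timp1 also changed with regime, and neighbours in it did not differ beyond their spread. Mmp2, Mmp14, Timp3 and Adamts1 had means of 13.6, 12.7, 2.11 and 1.06 CPM per kilobase on land. In the same gene order they had 3.11, 3.52, 5.38 and 3.88 in space with gravity, and 3.08, 3.69, 4.25 and 3.09 in space without gravity. The interstitial collagenase Mmp13 and the stromelysins Mmp10 and Mmp3 lay lower, and the gelatinase Mmp9 was lowest with 8 counts in 5 libraries. A filter on low counts left 7 of the 10 genes for testing, since Mmp3, Mmp9 and Mmp10 did not pass it.

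**Figure D1:**
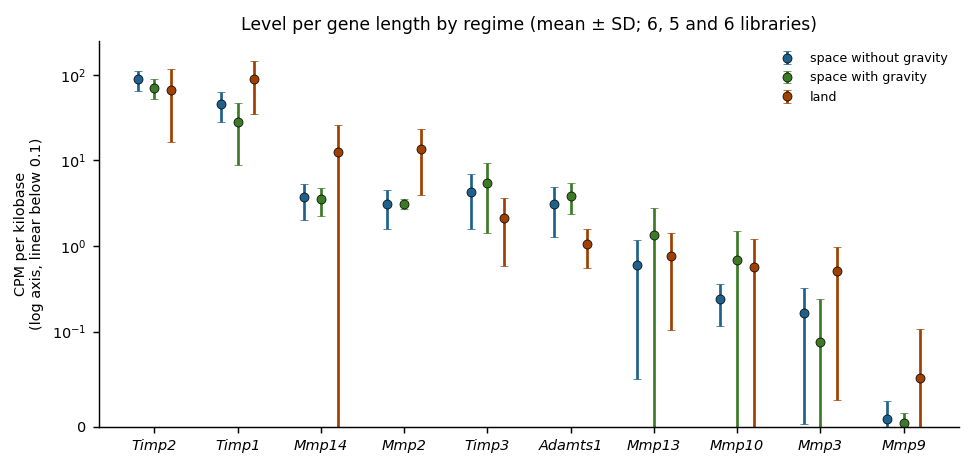
Mean level of each of the 10 genes in CPM per kilobase (log axis, linear below 0.1) by regime, with bars of 1 SD over 6 libraries in space without gravity, 5 in space with gravity and 6 on land; lower ends of bars that reach below 0 stop at the axis. Timp2 and Timp1 lie above the proteases in all 3 regimes, and Mmp9 lies lowest.

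The start sites of the collagenase Mmp13 and the stromelysins Mmp10 and Mmp3 differ in AP-1 and GC box letters from those of the other genes matched. RefSeq promoters (GRCm38.p6, 250 bases before to 50 bases after the start) matched 8 of the 10 genes; Mmp2 and Mmp9 were not matched. The AP-1 motif TGANTCA (N any base, both strands) was found in the windows of Mmp13, Mmp3 and Mmp10, and in 7.81% of 32851 promoters; its first base lies 35, 46 and 63 bases before the start. The TATA box letters TATAAA, on the gene's strand, were in the same 3 windows and in that of Adamts1, and in 8.32% of promoters. Their first base lies 16 bases before the start in Mmp13, 7 in Mmp3, 29 in Mmp10 and 32 in Adamts1, so their distance from the start varies. The GC box GGGCGG (both strands) was in the windows of Mmp14, Adamts1, Timp1, Timp2 and Timp3, and in 35.7% of promoters; none of these matches overlapped, and the GC boxes of Mmp14 lie end to end. The 100 bases before the start of 6 genes are printed to show this split, on the gene's strand, with motif letters in capitals (GC boxes on the opposite strand read CCGCCC).
Mmp13, chr9:7272414-7272513: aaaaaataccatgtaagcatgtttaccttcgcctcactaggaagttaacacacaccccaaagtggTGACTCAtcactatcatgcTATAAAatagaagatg
Mmp3, chr9:7445722-7445821: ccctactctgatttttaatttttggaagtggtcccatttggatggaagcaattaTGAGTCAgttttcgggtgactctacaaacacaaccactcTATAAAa
Mmp10, chr9:7502242-7502341: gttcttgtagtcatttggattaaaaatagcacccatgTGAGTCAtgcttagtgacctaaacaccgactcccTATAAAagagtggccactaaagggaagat
Mmp14, chr14:54431498-54431597: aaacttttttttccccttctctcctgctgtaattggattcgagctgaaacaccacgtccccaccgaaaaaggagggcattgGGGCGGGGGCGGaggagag
Adamts1, chr16:85803114-85803213 (minus strand): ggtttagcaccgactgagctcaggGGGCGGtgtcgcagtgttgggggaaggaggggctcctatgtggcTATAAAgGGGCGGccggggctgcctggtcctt
Timp1, chrX:20870066-20870165: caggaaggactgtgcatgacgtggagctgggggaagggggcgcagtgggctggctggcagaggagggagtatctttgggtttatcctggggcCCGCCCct
These motif matches describe the letters only; no binding was measured.

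Mmp2, which encodes gelatinase A (ENSMUSG00000031740, chromosome 8, 92827291 to 92853420 of GRCm38), was lower in space than on land. The untreated land libraries held 47.6, 29.7 and 56.2 CPM (replicates 1 to 3), and those with nanoceria 20.0, 17.2 and 105 CPM. In space with gravity the untreated libraries held 10.9, 9.63 and 9.88 CPM and the nanoceria libraries 12.7 and 9.25 CPM, with 0 counts in the smallest library. In space without gravity it was 7.62, 10.4 and 4.10 CPM untreated and 9.90, 11.1 and 19.1 CPM with nanoceria. All 5 libraries of space with gravity lay below all 6 on land, which was so in either direction for 7.82% of the tested genes. Of the libraries in space without gravity, nanoceria replicate 3 alone reached into the land range, so the groups of that comparison overlap; 2.91% of tested genes showed no overlap there. Averaged over nanoceria, Mmp2 fell by 2.20 ± 0.49 (log2, SE) between land and space with gravity (edgeR quasi-likelihood test, adjusted p 0.0111). Between land and space without gravity it fell by 2.20 ± 0.48 (edgeR adjusted p 0.0202).

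**Figure D2:**
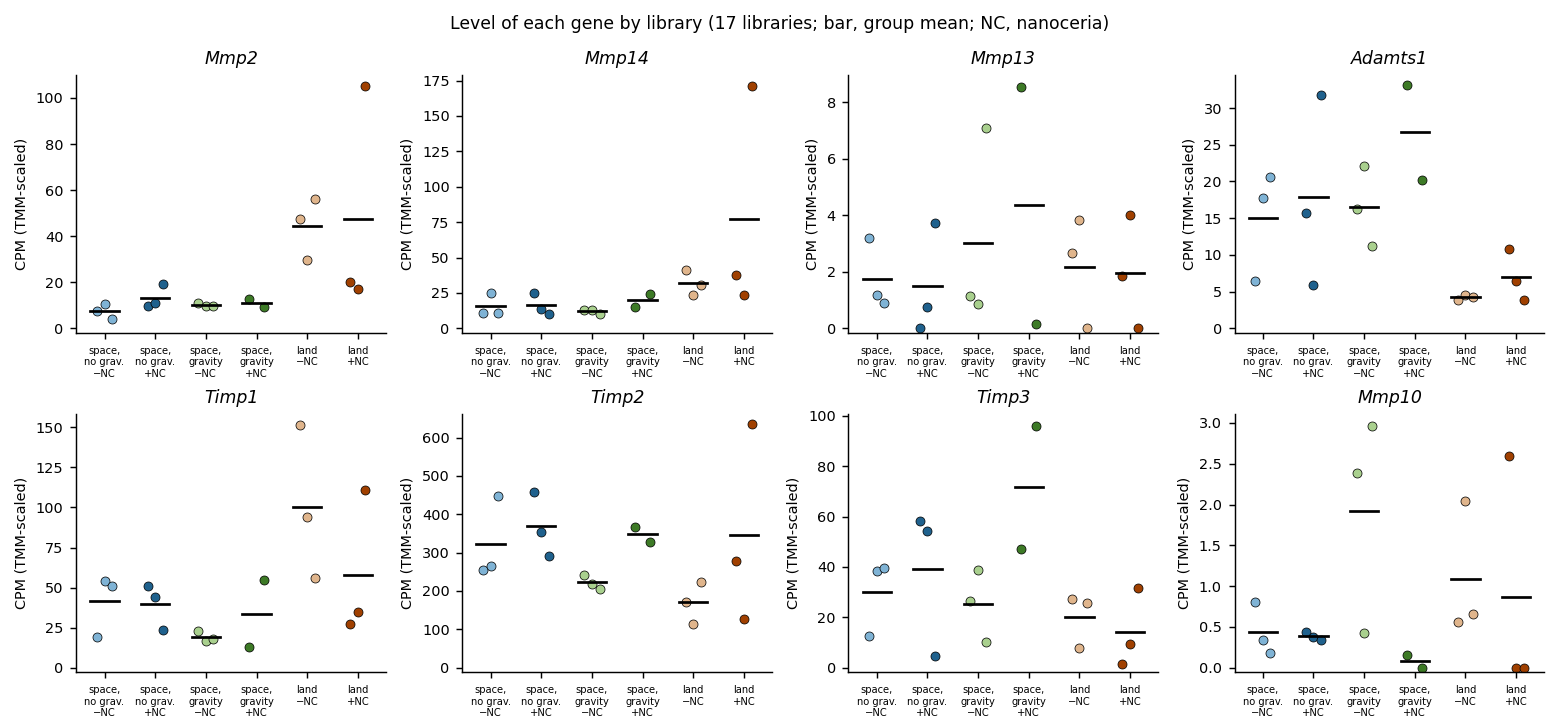
Level of 8 genes in each of 17 libraries (points, TMM-scaled CPM on linear axes) with the group mean as a bar; NC is nanoceria, and the smallest library is left out. Mmp2 lies between 9.25 and 12.7 CPM in space with gravity and between 17.2 and 105 CPM on land, and 1 land library with nanoceria holds the highest Mmp2, Mmp14 and Timp2.

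Mmp14, the membrane-type metalloproteinase (ENSMUSG00000000957, chromosome 14, 54431612 to 54441265), was also lower in space with gravity. Land libraries held 41.0, 23.5 and 30.9 CPM untreated and 37.4, 23.6 and 171 CPM with nanoceria. In space with gravity it measured 13.2, 13.2 and 9.88 CPM untreated and 15.2 and 24.2 CPM with nanoceria, and 0 counts in the smallest library. Without gravity in space it measured 11.0, 25.0 and 10.7 CPM untreated and 24.7, 13.7 and 9.99 CPM with nanoceria. The ranges touch: the highest library of space with gravity passes the lowest on land. Averaged over nanoceria, Mmp14 fell by 1.80 ± 0.51 (log2) between land and space with gravity (edgeR adjusted p 0.0282). Its difference of −1.64 ± 0.50 between space without gravity and land missed the threshold (edgeR adjusted p 0.0594), and it passed under 6 of 9 other settings.

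Timp1, a soluble inhibitor that also acts as a growth factor (ENSMUSG00000001131, chromosome X, 20870166 to 20874735), was lower in space with gravity. Land libraries held 152, 93.8 and 55.9 CPM untreated and 27.4, 34.9 and 111 CPM with nanoceria. In space with gravity it measured 22.8, 16.8 and 17.8 CPM untreated and 12.6 and 54.8 CPM with nanoceria, with 3 counts in the smallest library. Its levels in space without gravity were 18.9, 54.4 and 51.1 CPM untreated and 51.2, 44.2 and 23.5 CPM with nanoceria. Averaged over nanoceria, Timp1 fell by 1.57 ± 0.48 (log2) between land and space with gravity (edgeR adjusted p 0.0376), although the library ranges overlap. Against land, space without gravity differed by −0.91 ± 0.46 (edgeR adjusted p 0.233). Timp1 lies inside Syn1 on the opposite strand, a gene with 296 counts in all 18 libraries and no exon bases in common with it.

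Adamts1 (ENSMUSG00000022893, chromosome 16, 85793827 to 85803113) went the other way and was higher in space. Land libraries held 3.79, 4.60 and 4.27 CPM untreated and 10.7, 6.41 and 3.91 CPM with nanoceria. In space with gravity it measured 16.2, 22.1 and 11.2 CPM untreated and 33.1 and 20.2 CPM with nanoceria, and 1 count in the smallest library. In space without gravity it measured 6.42, 17.8 and 20.7 CPM untreated and 15.7, 5.94 and 31.8 CPM with nanoceria. All 5 libraries of space with gravity lay above all 6 on land, by a narrow gap of 11.2 CPM against 10.7 CPM. Such a lack of overlap, in either direction, was found for 7.82% of the tested genes. In space without gravity 2 libraries lay within the land range, and 2.91% of tested genes showed no overlap there. Adamts1 rose by 1.87 ± 0.45 (log2) between land and space with gravity (edgeR adjusted p 0.0150) and by 1.59 ± 0.44 between land and space without gravity (edgeR adjusted p 0.0457).

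The abundant inhibitor Timp2 (ENSMUSG00000017466, chromosome 11, 118301069 to 118355740) overlapped between regimes. It measured 172, 115 and 224 CPM in untreated land libraries and 277, 126 and 636 CPM with nanoceria. In space with gravity it was 242, 219 and 204 CPM untreated and 368 and 328 CPM with nanoceria. Without gravity in space it was 254, 266 and 447 CPM untreated and 458, 355 and 292 CPM with nanoceria. Its log2 difference from land was −0.02 ± 0.46 in space with gravity (edgeR adjusted p 0.986), a sign that turned under 4 of 9 other settings, and 0.51 ± 0.46 in space without gravity (edgeR adjusted p 0.519). Timp3 (ENSMUSG00000020044, chromosome 10, 86300372 to 86349506) ranged from 1.48 to 31.6 CPM on land, 10.4 to 96.1 CPM in space with gravity and 4.57 to 58.2 CPM in space without gravity. Its log2 differences from land were 1.16 ± 0.68 in space with gravity (edgeR adjusted p 0.248) and 1.02 ± 0.67 in space without gravity (edgeR adjusted p 0.36). Timp3 shares 1733 of its 8144 exon bases with Syn3 on the opposite strand, but Syn3 had 5 counts in all.

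Mmp13, Mmp10 and Mmp3, which lie close together on chromosome 9 and share the AP-1 and TATA letters printed above, varied from library to library. Mmp13 counts were 18, 10 and 43 in untreated space with gravity and 108, 1 and 0 with nanoceria, the 0 being the smallest library. On land Mmp13 counts were 19, 15 and 0 untreated and 5, 20 and 0 with nanoceria, and in space without gravity 16, 7 and 5 untreated and 0, 2 and 22 with nanoceria. Libraries of the same group differed widely, so no regime stood apart. The log2 difference of Mmp13 from land was 0.71 ± 1.02 in space with gravity (edgeR adjusted p 0.664), a sign that turned with limma voom, and −0.37 ± 1.02 in space without gravity (edgeR adjusted p 0.858). Mmp10 counts were 37, 5 and 18 in untreated space with gravity, and 0 to 8 in every other library. Mmp3 had 35 counts over all libraries, with at most 6 in any of them. Mmp3, Mmp9 and Mmp10 were not tested, so their counts are a description.

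Together, 4 of the 7 tested genes were called between space with gravity and land (Mmp2, Mmp14 and Timp1 lower, Adamts1 higher), against 14.0% of all 11558 tested genes (7.22% higher, 6.74% lower). Between space without gravity and land 2 of 7 were called (Mmp2 lower, Adamts1 higher), against 5.25% of tested genes (2.81% higher, 2.44% lower). Both comparisons use the same 6 land libraries, so their values are not independent of each other. The median log2 change of the 7 genes was −0.02 in space with gravity against land and −0.37 in space without gravity against land, beside −0.04 and −0.02 over all tested genes. Under DESeq2 size factors the median of all genes moved to −0.39 and −0.28, with 628 higher and 1558 lower calls in space with gravity against 834 and 779 with TMM, and 261 higher and 552 lower in space without gravity against 325 and 282. Under those factors the log2 differences in space with gravity were −2.59 for Mmp2, −2.19 for Mmp14, −1.94 for Timp1 and 1.52 for Adamts1, all 4 still called with edgeR.

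**Figure D3:**
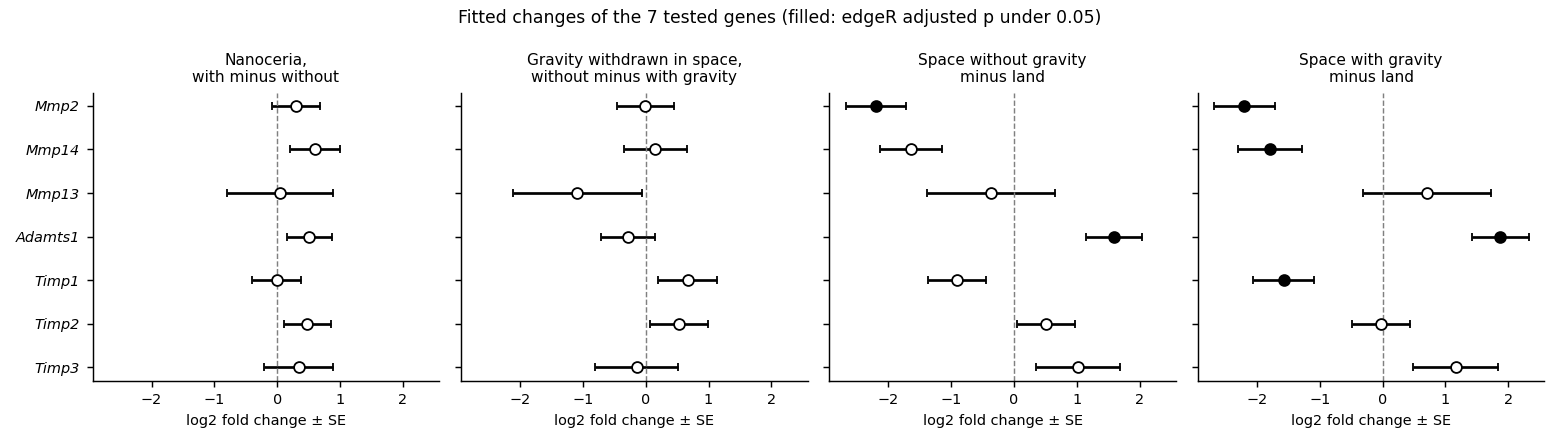
Fitted log2 fold change (point) with its SE (bar) for the 7 tested genes in the 4 averaged comparisons; filled points passed the edgeR adjusted threshold of 0.05. Filled points appear in the 2 comparisons with land, for Mmp2 and Adamts1 in both and for Mmp14 and Timp1 in space with gravity.

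These calls depended on several libraries, on 1 covariate and on other settings. With a covariate for the share of counts in the 6 dominant genes, which differs between the regimes, 0 of 7 genes were called in either comparison. Few genes of any kind were called with it: of all 11558 tested, 1 in space with gravity and 6 in space without gravity. With this covariate Mmp2 differed by −2.25 (edgeR adjusted p 0.275), Mmp14 by −1.27 (0.593), Timp1 by −0.83 (0.750) and Adamts1 by 1.93 (0.347) in space with gravity. The part of that share in the differences was not tested. With the groups compared alone in the fit, Mmp14 (edgeR adjusted p 0.0552) and Timp1 (0.0691) lost their calls in space with gravity and Adamts1 (0.0745) in space without gravity. With limma voom Mmp14 in space with gravity (−1.21, adjusted p 0.0618) and Adamts1 in space without gravity (1.26, 0.0716) lost theirs, the latter also with DESeq2 size factors in edgeR (1.35, 0.0662). Land with nanoceria replicate 3 holds the highest Mmp2, Mmp14 and Timp2; without it, Mmp2 differed by −1.50 in space with gravity (edgeR adjusted p 0.0321), Mmp14 by −1.10 (0.105) and Timp1 by −1.12 (0.114). Mmp2 in space with gravity stayed called in all 18 fits that left out 1 library, with an edgeR adjusted p of at most 0.0362. The call of Mmp14 ended in 6 of these fits: any untreated library of space with gravity, space with gravity and nanoceria replicate 1, untreated land replicate 1 or land with nanoceria replicate 3. That of Timp1 ended in 9: the same 6, untreated land replicate 2, untreated space without gravity replicate 3, and space without gravity and nanoceria replicate 2. That of Adamts1 ended without space with gravity and nanoceria replicate 1 (1.68, edgeR adjusted p 0.0585). In space without gravity the call of Mmp2 ended in 5 fits (untreated replicates 1 and 3, nanoceria replicate 1, untreated land replicate 1, land with nanoceria replicate 3) and that of Adamts1 in 16 of 18, all but those without nanoceria replicate 2 of space without gravity or nanoceria replicate 1 of land. Without the smallest library the 4 calls in space with gravity held, while in space without gravity Mmp14 was called (−1.66, edgeR adjusted p 0.0422) and Adamts1 was not (1.54, 0.0506).

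Levels of the markers of other cells are given beside these calls, with no test. The summed level of 5 fibroblast and mesenchymal markers, 4 of them with counts on land and mostly Ly6a, was 50.3 to 179 CPM on land, 21.2 to 52.3 CPM in space with gravity and 37.7 to 95.0 CPM in space without gravity. Of the 6 markers of differentiating muscle, all had counts on land, with a sum of 2.56 to 76.4 CPM there against 0.659 to 10.5 CPM in space with gravity and 1.25 to 17.1 CPM in space without gravity; the highest sum was in untreated land replicate 1. In land with nanoceria replicate 3, where Mmp2 and Mmp14 were highest, the fibroblast sum was 158 CPM and the differentiation sum 7.16 CPM. The myoblast sum of that library, 561 CPM, was the highest of the 17. The macrophage and leukocyte sum, mostly Cd68, was 1.31 to 41.8 CPM on land, 4.78 to 32.8 CPM in space with gravity and 5.37 to 23.0 CPM in space without gravity. For the fibroblast, differentiation and macrophage lists the land range overlaps that of each space regime. For the fibroblast sum the overlap with space with gravity rests on untreated land replicate 1 (50.3 CPM). Only space with gravity and nanoceria replicate 1 (52.3 CPM) passes it, and the next lowest land sum was 84.6 CPM, in untreated replicate 2. All 4 endothelial markers had counts, with a sum of 21.2 CPM, mostly Tek, in space with gravity and nanoceria replicate 1 and at most 2.59 CPM in the other 16 libraries. The adipocyte sum was at most 3.67 CPM and the epithelial sum at most 0.976 CPM in any of the 17. The part of these markers in the differences of Mmp2, Mmp14, Timp1 and Adamts1 was not tested.

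The balance of protease to inhibitor within a library does not depend on the scaling between libraries. The log2 ratio of Mmp2 to Timp2, per kilobase, was −2.30 ± 0.74 on land (SD, range −3.57 to −1.64), −4.45 ± 0.32 in space with gravity (−4.93 to −4.15) and −4.93 ± 0.94 in space without gravity (−6.53 to −3.72), so no space library of these 17 reached the land range. Of the 11557 tested genes other than Timp2, 1.43% had a ratio to Timp2 that lay lower in all 11 space libraries than in all 6 on land (1.51% in either direction). Mmp14 to Timp2 was likewise −2.54 ± 0.41 on land (−3.02 to −2.03), −4.33 ± 0.32 in space with gravity (−4.73 to −3.90) and −4.65 ± 0.66 in space without gravity (−5.52 to −3.55). For Mmp14 too, all 11 space libraries lay below all 6 on land. The land libraries with nanoceria had a mean Mmp2 to Timp2 ratio of −2.87 ± 0.62 and the untreated ones −1.72 ± 0.07. In space with gravity the means were −4.78 ± 0.20 with nanoceria (2 libraries) and −4.24 ± 0.08 untreated. The direction was the opposite in space without gravity, at −4.60 ± 0.81 with nanoceria and −5.27 ± 1.11 untreated. Mmp2 to Timp3 ran from 2.08 to 4.87 on land, from −2.09 to 1.20 in space with gravity and from −1.98 to 3.32 in space without gravity, where 1 library reached into the land range. Mmp2 to Timp1 overlapped between all regimes, at −2.73 ± 0.75 on land, −2.97 ± 0.94 in space with gravity and −3.91 ± 1.12 in space without gravity. The ratios are a description with 0.5 added to each count and no test, and RNA ratios are not ratios of active enzyme.

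**Figure D4:**
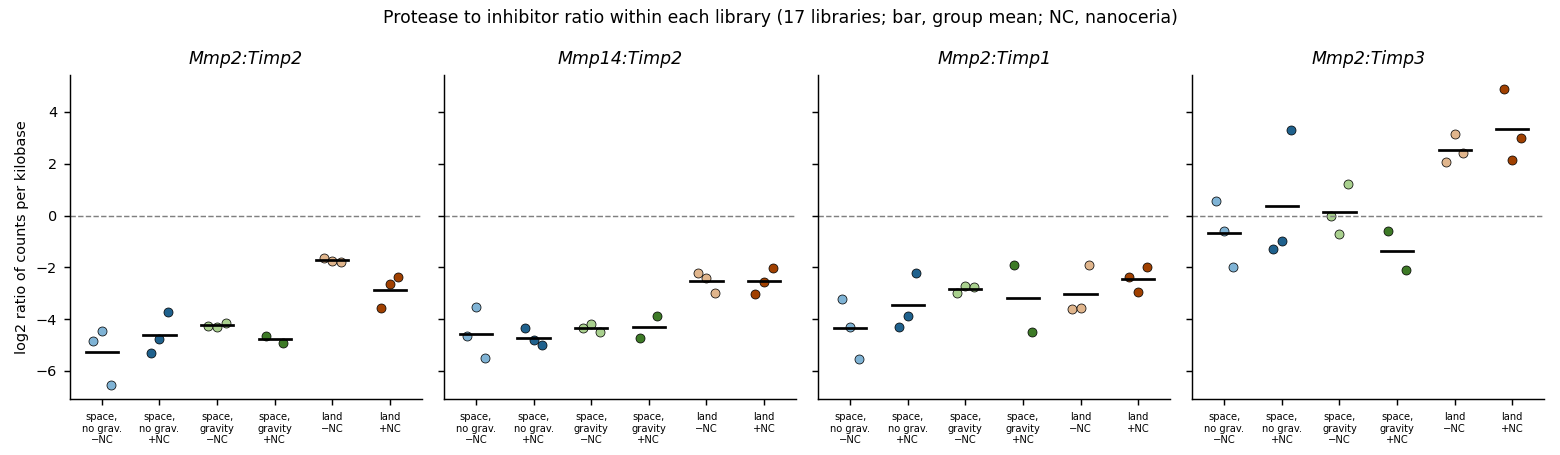
Log2 ratio of protease to inhibitor counts per kilobase in each of 17 libraries (points) with group means (bars); NC is nanoceria. The 6 land libraries lie above every space library for Mmp2 to Timp2 and Mmp14 to Timp2, and overlap them for Mmp2 to Timp1.

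Withdrawal of gravity in space, the comparison within the same flight, gave no call for these genes. None of the 7 passed the adjusted threshold, and none had an unadjusted p under 0.05, against 0% called and 5.85% at unadjusted p under 0.05 among all tested genes (edgeR; DESeq2 called 11 genes, none of the 7). Averaged over nanoceria, the log2 difference, without minus with gravity, was 0.67 ± 0.47 for Timp1 (edgeR adjusted p 0.947), 0.53 ± 0.46 for Timp2 and 0.16 ± 0.50 for Mmp14. It was −0.01 ± 0.45 for Mmp2, −0.15 ± 0.66 for Timp3, −0.28 ± 0.43 for Adamts1 and −1.09 ± 1.02 for Mmp13. The signs of Mmp2 and Mmp14 turned under other settings. The libraries of the 2 space regimes overlapped for all 7 genes, as they did for all but 0.658% of tested genes.

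Nanoceria likewise gave no call. Averaged over the 3 regimes, 0 of 7 genes passed, against 0% of all tested genes (6.54% at unadjusted p under 0.05, none of the 7; DESeq2 called 1 gene, none of the 7). The log2 difference, with minus without nanoceria, was 0.60 ± 0.40 for Mmp14 (edgeR adjusted p 0.805), 0.51 ± 0.36 for Adamts1 (0.816) and 0.48 ± 0.38 for Timp2. It was 0.34 ± 0.54 for Timp3, 0.30 ± 0.38 for Mmp2, 0.04 ± 0.84 for Mmp13 and −0.01 ± 0.39 for Timp1, the signs of Timp3, Mmp13 and Timp1 turning under other settings. Within single regimes the difference of Mmp14 was 1.28 ± 0.69 on land (edgeR adjusted p 0.537), where nanoceria replicate 3 holds 171 CPM. For Timp1 it was −0.80 ± 0.65 on land and 0.83 ± 0.68 in space with gravity, but the test of whether the nanoceria effect differs between regimes passed for none of the 7 (smallest edgeR adjusted p 0.908, for Timp1). In the 9 pairwise comparisons, each within 1 regime or 1 nanoceria level, none of the 7 was called with edgeR. Among all tested genes the called share was 0.00865% in space with gravity against land with nanoceria, 0.0433% in space without gravity against land with nanoceria, and 0% in the other 7. The nearest were Timp1 (−2.39 ± 0.68, edgeR adjusted p 0.0901) and Mmp2 (−2.13 ± 0.67, 0.104) in untreated space with gravity against land.

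The wider pathway was read from 66 companion genes, of which 35 were tested. Between space with gravity and land 3 rose and 6 fell; between space without gravity and land 1 rose and 4 fell, beside the shares of all tested genes given above (edgeR, adjusted p under 0.05). The median log2 change of the 35 was 0.11 and 0.09. Neither nanoceria nor gravity withdrawal gave a call among them.

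Jun, Junb and Jund, AP-1 factors of the family that binds the TGANTCA letters, fell in both comparisons with land. They were 3 of the 8 tested among 9 listed AP-1 and ETS factors. The ETS factors of that list, also named after their values were seen, went the other way in space with gravity without a call. Their log2 differences there were 1.33 ± 0.63 for Ets1 (edgeR adjusted p 0.156) and 0.75 ± 0.34 for Ets2 (0.139). The other tested AP-1 factors, named here after their values were seen, were not called: the log2 differences with and without gravity were −1.22 and −0.90 for Fos (edgeR adjusted p 0.163 and 0.331), −0.84 and −0.59 for Fosl1 (0.259 and 0.468) and 0.23 and 0.64 for Fosl2 (0.692 and 0.258). Jun had 42.2 to 135 CPM on land, 14.2 to 39.4 CPM in space with gravity and 12.9 to 34.7 CPM in space without gravity, so that no space library reached the land range, as was so for 1.12% of tested genes in this direction and 1.79% in either. It fell by 1.79 ± 0.41 (log2, edgeR adjusted p 0.0118) and by 1.66 ± 0.39 (0.0262). Junb fell by 1.50 ± 0.37 (edgeR adjusted p 0.0162) and by 1.42 ± 0.36 (0.0333), and Jund by 2.04 ± 0.41 (0.00813) and by 1.70 ± 0.40 (0.0250). Jund on land (19.1 to 123 CPM) overlapped space with gravity (15.7 to 24.9 CPM) and without gravity (17.9 to 32.3 CPM). Junb on land (24.6 to 84.8 CPM) overlapped space with gravity (9.66 to 32.4 CPM). It did not overlap space without gravity (12.3 to 20.7 CPM), as was so for 2.91% of tested genes in either direction. Of the genes whose windows hold AP-1 letters, Mmp13 was not called in these comparisons, and Mmp3 and Mmp10 were not tested. The windows of Mmp2 and Mmp9 were not read for want of a matched promoter. A link between these factors and the listed genes was not tested.

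Among other proteases, Mmp15, another membrane-type enzyme, had 1.64 to 11.4 CPM on land and 0.494 to 1.68 CPM in space with gravity. It fell by 2.48 ± 0.55 in space with gravity (edgeR adjusted p 0.0111) and by 1.90 ± 0.51 in space without gravity (0.0405). Its counts were low, at 0 to 26 in space with gravity, 3 to 14 in space without gravity and 5 to 48 on land. The ranges overlap: the lowest land library (1.64 CPM) lay below the highest with gravity (1.68 CPM) and without gravity (2.60 CPM). Of 17 other metalloproteinases 4 were tested, and the other that fell in space with gravity was Mmp11 (−1.48 ± 0.42, edgeR adjusted p 0.0285), which is named here after its value was seen. Adamts5, an aggrecan- and versican-cleaving relative of Adamts1, rose by 2.33 ± 0.47 (edgeR adjusted p 0.00813) and by 2.13 ± 0.46 (0.0202), the only call among 7 tested of 18 other ADAMTS genes. Its libraries held 25.2 to 71.2 CPM in space with gravity, 17.6 to 77.5 CPM in space without gravity and 2.63 to 20.6 CPM on land. Reck, a membrane-anchored inhibitor of metalloproteinases, had 36, 35 and 4 counts in untreated space with gravity and 58, 7 and 2 with nanoceria, against 9, 3 and 3 on untreated land and 0 in all 3 land libraries with nanoceria. Averaged over nanoceria it rose in space with gravity (edgeR adjusted p 0.0121), and no fold is given because a group was at 0. Without nanoceria alone the log2 difference was 0.98 ± 0.93 (edgeR unadjusted p 0.308, adjusted 0.56), and with nanoceria, where the land group is at 0, the adjusted p was 0.0675. The test of whether the nanoceria effect on Reck differs between regimes did not pass (edgeR unadjusted p 0.0119, adjusted p 0.756). It too rests on the land group at 0.

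In the plasminogen system, whose product plasmin activates several proenzymes of this family, Plaur, the urokinase receptor, rose by 2.42 ± 0.47 in space with gravity (edgeR adjusted p 0.00709), from 1.31 to 6.60 CPM on land to 7.74 to 37.3 CPM. Serpine2, a serine protease inhibitor, fell by 2.10 ± 0.58 there (edgeR adjusted p 0.0247), with library ranges that overlap. Neither was called in space without gravity. Of 13 listed activators, sheddases and clearance genes 9 were tested and none was called; Bsg, a surface inducer of metalloproteinases, had the highest level of all listed genes at 221 ± 76.1 CPM per kilobase. With the dominant share as covariate none of the 8 named companions kept its call. Of all 11558 tested genes only 1 was called with it in space with gravity and 6 in space without gravity. In space with gravity the log2 differences were then 2.91 for Plaur (edgeR adjusted p 0.173), 2.23 for Adamts5 (0.323), −1.94 for Jun (0.239), −1.34 for Junb (0.339) and −3.33 for Serpine2 (0.116), while Jund moved to −0.78 (0.716) and Mmp15 to −1.38 (0.624). In space without gravity they were 2.09 for Adamts5 (edgeR adjusted p 0.119), −1.74 for Jun (0.120), −1.35 for Junb (0.153), −1.11 for Jund (0.247) and −1.43 for Mmp15 (0.276). Without space with gravity and nanoceria replicate 1 the calls of Mmp15, Jun and Junb in space with gravity ended (edgeR adjusted p of at most 0.0646), and that of Serpine2 ended in 6 of the 18 fits with 1 library left out (untreated replicates 2 and 3 and nanoceria replicates 1 and 2 of space with gravity, untreated land replicate 3, land with nanoceria replicate 3), with a value of −1.33 at the weakest, and with limma voom (−1.22, adjusted p 0.101). Junb lost both calls without a filter on low counts (−1.41, edgeR adjusted p 0.06, and −1.36, 0.085), and Mmp15 lost that in space without gravity (−1.84, 0.0814). With the groups compared alone in the fit, Junb in space with gravity (edgeR adjusted p 0.0507) and Jund (0.0511) and Mmp15 (0.0597) in space without gravity lost theirs. In space without gravity the 5 companion calls ended in 3 (Adamts5) to 12 (Mmp15) of these fits, and each of the 5 ended without untreated replicate 3 of that regime, untreated land replicate 2 or land with nanoceria replicate 3.

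**Figure D5:**
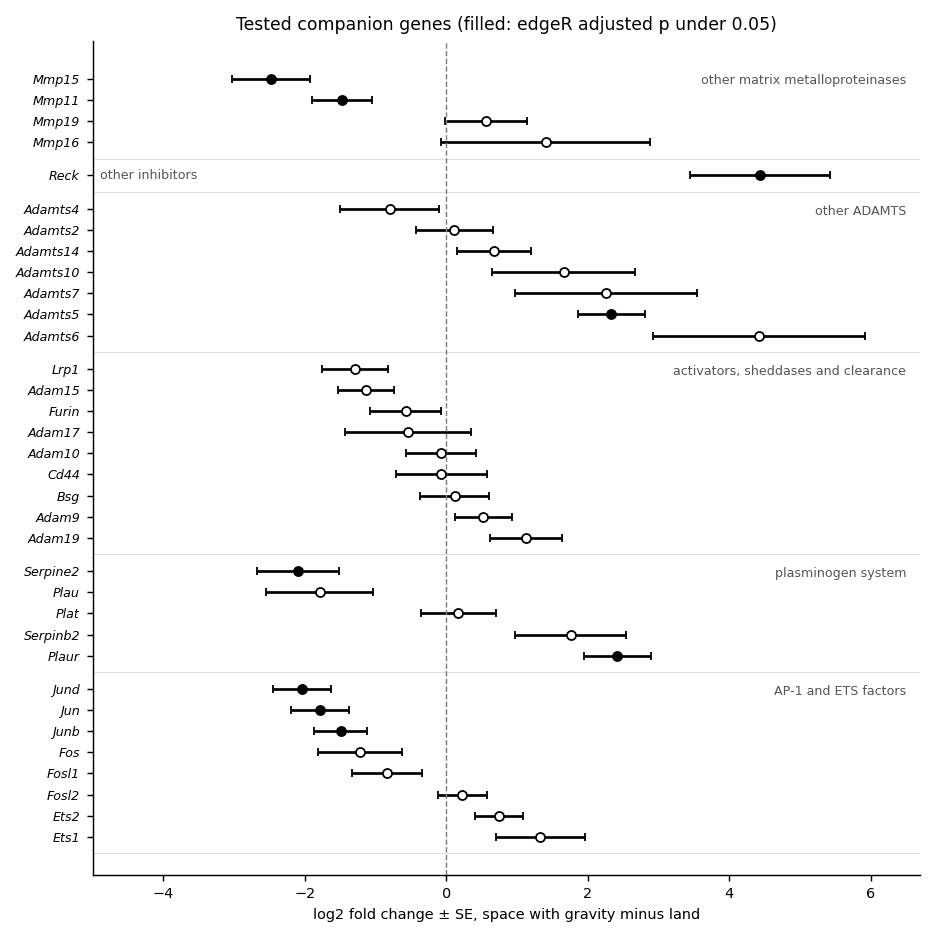
Fitted log2 fold change (point) with SE (bar), space with gravity minus land, for tested companion genes by list; filled points passed the edgeR adjusted threshold of 0.05. Jun, Junb, Jund, Mmp15, Mmp11 and Serpine2 fell and Plaur, Adamts5 and Reck rose; the fitted size for Reck rests on a land group at 0 and is no bound.

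Finally, genes with the most similar profiles to the 3 members of highest CPM were named, by the root mean square difference of centred log2 CPM over 17 libraries among 6120 genes. Arpc1b (0.44) and Crtap (0.48) were among the 3 nearest to Timp1, whose own deviation about its mean was 0.98. Prkab2 (0.48), Psmc1 (0.48) and Mbtps1 (0.48) were nearest to Timp2, against an own deviation of 0.62. Tpm1 (0.89), Tns1 (0.93) and Fbln2 (0.94) were nearest to Timp3, against 1.43. With all 18 libraries only 1 of the 3 genes for Timp1 and 1 of the 3 for Timp2 were named again.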

How the data were processed

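The deposited files hold raw counts per Ensembl gene, 1 library each, with GRCm38 gene coordinates and lengths per the file headers. The submitters' processing notes name CASAVA, Trimmomatic 0.36.29, STAR, Subread and featureCounts, and GRCm38.p6; settings and strand use are not given in the sources used here. Reads from overlapping genes may therefore be shared. The 18 small RNA samples were not analysed here.

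The test was edgeR 4.0.16 (R 4.3.3): filterByExpr over the 6 groups (11558 genes), trimmed mean of M values (TMM) factors, robust quasi-likelihood fit of group means over all 18 libraries (12 residual degrees of freedom), Benjamini-Hochberg adjustment over all tested genes, threshold 0.05. The SE beside a log2 change is the absolute change divided by the square root of the F statistic of this test. The common biological coefficient of variation was 0.659. Level estimates are CPM over 17 libraries, the smallest left out. The method was tested on simulated data. Alternatives were DESeq2 1.42.0 (size factors and test), limma 3.58.1 voom, other filters, the dominant genes removed or as a covariate, only the groups compared, and leaving out libraries.

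Named were all 10 members, the 8 companion genes with the smallest p among those past the threshold, the companions of highest level, and 3 nearest profiles for each of the 3 members of highest CPM. The members and lists were chosen with earlier results of these data known. Groups come from the labels' class, treatment and regime; replicate numbers follow the order of the records. A companion gene is not reported here by name. Floors of 3 counts cover counting error only.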

Additional observations from a re-analysis of the deposited data

How the results depend on the processing

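Over 48 results, 350 of 410 values under other settings kept direction and side of the threshold, 33 lost their call, 6 gained one and 21 changed sign, none of the last a called value. Genes called between space with gravity and land (members 4, all 1613): 0 and 1 with the dominant share as covariate, 2 and 1072 with only the groups compared, 2691 in all with DESeq2; without 1 library, 1 to 4 and 459 to 1614. Space without gravity against land (2 and 607): 0 and 6 with the covariate, 1 and 387 with only the groups compared; in all 1466 without a filter, 989 with voom, 1524 with DESeq2; without 1 library, 0 to 2 and 82 to 713. All genes called without a filter and with DESeq2, against 0: nanoceria 214 and 1, gravity 229 and 11, difference of the nanoceria effect 551 and 8. Members called, against 0: untreated space with gravity against land, voom 3, DESeq2 2; with nanoceria DESeq2 2; untreated space without gravity against land, no filter, voom and DESeq2 1 each; with nanoceria DESeq2 2. The calls over all tested genes in these pairwise fits are not given. These member counts therefore cannot be set against a share of all genes, and DESeq2 called more genes in the averaged comparisons too. Signs turned for nanoceria in Mmp13 (DESeq2 size factors −0.0076, voom −0.35, DESeq2 −0.0451), Timp1 (DESeq2 size factors and test 0.024, mean of at least 50 counts 0.046, without the smallest library 0.0083, without dominant genes 0.0027) and Timp3 (voom −0.0658); for gravity in Mmp2 (DESeq2 size factors and test 0.13, mean filter 0.0757, covariate 0.0279, groups compared 0.0084) and Mmp14 (covariate −0.15, voom −0.0235); for space with gravity against land in Mmp13 (voom −0.28) and Timp2 (no filter 0.0893, smallest library left out 0.16, without dominant genes 0.0032, voom 0.0917). Without 1 library, log2 ranges with sign changes were: nanoceria Mmp2 −0.13 to 0.45, Mmp13 −1.47 to 0.56, Timp1 −0.30 to 0.14, Timp3 −0.0905 to 0.52; gravity Mmp2 −0.19 to 0.17, Mmp13 −2.28 to 1.18, Mmp14 −0.10 to 0.38, Timp3 −0.37 to 0.19; space with gravity against land Mmp13 −1.53 to 1.32, Timp2 −0.18 to 0.39; space without gravity against land Mmp13 −1.55 to 0.22. With all 18 libraries 1 of 3 nearest genes was shared for Timp2 and 1 for Timp1. The cause of these changes was not tested. No paired analysis was possible because record order alone set the numbers of the libraries. Depth limits Mmp3, Mmp9 and Mmp10 most, and the smallest library for every gene.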
